A study of Homo sapiens with 10 samples.

Results

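Cytosolic ribosomal protein mRNAs were taken as the genes whose symbol starts with RPL or RPS followed by a number, together with RPLP0, RPLP1, RPLP2 and RPSA. RPS6 kinase genes, RPS4Y1, RPS4Y2, RPS16 and RPS29 were left out. The rule found 88 of the 20289 genes in the table. Of these, 75 are core subunits (46 of the large and 29 of the small subunit), 8 are paralogues, 3 are readthrough genes that join a ribosomal protein gene to its neighbour, and 2 are others (RPS19BP1, which encodes an RPS19-binding protein, and RPS27AP5, which has a pseudogene's name and is annotated as protein coding). A filter of at least 1 FPKM (a level scaled to gene length and library size) in at least 2 libraries kept 85 of the 88, with every core gene among them. RPL3L, RPL10L and RPS27AP5 did not pass.

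The study used 2 established lines of pancreatic adenocarcinoma cells (CFPAC-1 and PANC-1) with and without imidazole ketone erastin (IKE), an erastin derivative that blocks cystine uptake and is used to induce ferroptosis. CFPAC-1 had 2 libraries with 0.1% DMSO and 2 with 10 µM IKE, and PANC-1 had 2 with 0.1% DMSO and 4 with 1 µM IKE, all after 24 h. The dose differed between the lines, so line and dose cannot be told apart in the response to IKE. Dead cells and debris were removed and survivors were sequenced. All 5 ductal epithelial markers (KRT7, KRT8, KRT18, KRT19, EPCAM) were present, with a summed level of 4847 to 6750 FPKM, and no acinar, endocrine or erythroid marker reached 1 FPKM. Of other cell types, CD68, PECAM1, COL1A1 and COL3A1 reached 1 FPKM in at least 1 library. Summed levels per library were 23.98 to 46.26 FPKM for leukocyte, 0.08 to 21.3 FPKM for endothelial and 4.32 to 26.15 FPKM for fibroblast markers.

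Each ribosome carries one copy of nearly every ribosomal protein, so cells need these proteins in matched amounts. Their mRNAs are short, abundant and stable, and most begin with a 5′ terminal oligopyrimidine (TOP) tract, a C followed by a run of C and T, through which mTORC1 and LARP1 set their translation. Since this control acts largely on translation, mRNA levels report only part of ribosomal protein output.

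The tract can be read at the annotated starts. Below are 30-base windows from RefSeq (GRCh38.p14), 10 bases before the start and 20 from it, written 5′ to 3′ on the gene's strand. Capitals mark the pyrimidine run that opens the transcript where it begins with C and 4 more pyrimidines. RPL24 and RPL14 are shown because they had the lowest p-values for IKE among core genes with such a run, RPLP2, RPL27A, RPS13 and RPL34 because they were among the 6 core genes of lowest p between the lines, and RPL32 and RPL19 because no listed start has the run.
RPL24 (chr3:101686699-101686728, minus strand): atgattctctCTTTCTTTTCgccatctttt
RPL14 (chr3:40457329-40457358, plus strand): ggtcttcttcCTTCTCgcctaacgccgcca
RPLP2 (chr11:809957-809986, plus strand): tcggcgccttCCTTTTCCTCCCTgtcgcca
RPL27A (chr11:8682782-8682811, plus strand): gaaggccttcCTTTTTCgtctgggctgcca
RPS13 (chr11:17077648-17077677, minus strand): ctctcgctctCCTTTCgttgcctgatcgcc
RPL34 (chr4:108620566-108620595, plus strand): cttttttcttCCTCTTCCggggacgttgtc
RPL19 (chr17:39200313-39200342, plus strand): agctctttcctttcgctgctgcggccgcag
RPL32 (chr3:12841546-12841575, minus strand): acgacccatcagcccttgcgcgccaccgtc

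Of the core genes, 60 had a sequence in the table, and 45 of these (75%) had a run at 1 or more listed starts. The share was 7.01% of 10416 other tested genes with a sequence and 8.70% of 69 mitochondrial ribosomal protein genes. In the RPL19 window a stretch of C and T crosses the listed start without opening on C, so the count depends on the base that the annotation lists. FAU and RACK1, ribosomal proteins outside the symbol rule, both had the run. The median log2 difference between IKE and DMSO was 0.10 in the 45 genes with a run and 0.03 in the 15 without one in CFPAC-1, and 0.15 and 0.14 in PANC-1. This split also depends on the listed base, so it need not separate TOP mRNAs from others, and it was not tested.

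The core genes were among the most abundant mRNAs, and 60 of them stood among the 200 tested genes with the highest mean FPKM. Their mean FPKM over the 10 libraries had a median of 424, with 277 and 623 as quartiles. RPLP0, the scaffold of the ribosomal stalk, was highest at 1575 FPKM, followed by RPL10 (1221 FPKM), which joins the large subunit late in its assembly. RPS3 (1121 FPKM), at the mRNA entry site, RPS2 (1062 FPKM) and RPL41 (1029 FPKM), the shortest ribosomal protein, came next. The ranges of RPL10, RPS3, RPS2 and RPL41 over the libraries overlapped, so their order is not firm. RPLP0 lay above RPL10 in each of the 10 libraries. The order pools both lines, and in CFPAC-1 with DMSO RPL19 was above RPLP0 (1470 and 1436 FPKM against 1266 and 1366 FPKM). RPS3 ran from 910 to 1326 FPKM over the libraries and RPL41 from 814 to 1143 FPKM.

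At the other end were RPL22 (116 FPKM), RPS10 (69.7 FPKM), RPS28 (67.8 FPKM), RPL36 (39.2 FPKM) and RPL23A (17.3 FPKM), a protein of the exit tunnel. RPL23A ranged only from 15.6 to 19.2 FPKM, below every library of every other core gene, and has 91 named pseudogenes in GENCODE 29, the most of the 75. The core genes have 1098 named pseudogenes in all, and RPL28 alone has none. Reads that fit both a gene and a near-identical copy cannot be placed with certainty, so levels are uncertain for such genes. Across the 75 genes the number of pseudogenes and log2 mean FPKM had a Spearman rho of 0.059. Levels in the 2 lines with DMSO went together across the 75 genes (Pearson r 0.883, Spearman rho 0.813), with genes as points that share libraries and scaling.

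The core genes took a larger share of summed FPKM with IKE than with DMSO in both lines. In CFPAC-1 the share was 8.21% and 8.40% with DMSO and 8.84% and 8.75% with IKE. In PANC-1 it was 7.56% and 7.57% with DMSO and 7.91%, 8.22%, 8.05% and 8.22% with IKE. No library with IKE fell below a library with DMSO of its line. The group means were 8.31% ± 0.135 (SD, n = 2) and 8.80% ± 0.0603 (SD, n = 2) in CFPAC-1, and 7.56% ± 0.0132 (SD, n = 2) and 8.10% ± 0.152 (SD, n = 4) in PANC-1. Large-subunit genes went from 5.07% to 5.40% and small-subunit genes from 3.23% to 3.39% in CFPAC-1, and from 4.38% to 4.75% and from 3.18% to 3.35% in PANC-1. FPKM are relative, so more of these mRNAs and less of other RNA cannot be told apart, nor can fewer cells of a kind and less RNA per cell.

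**Figure D1:**
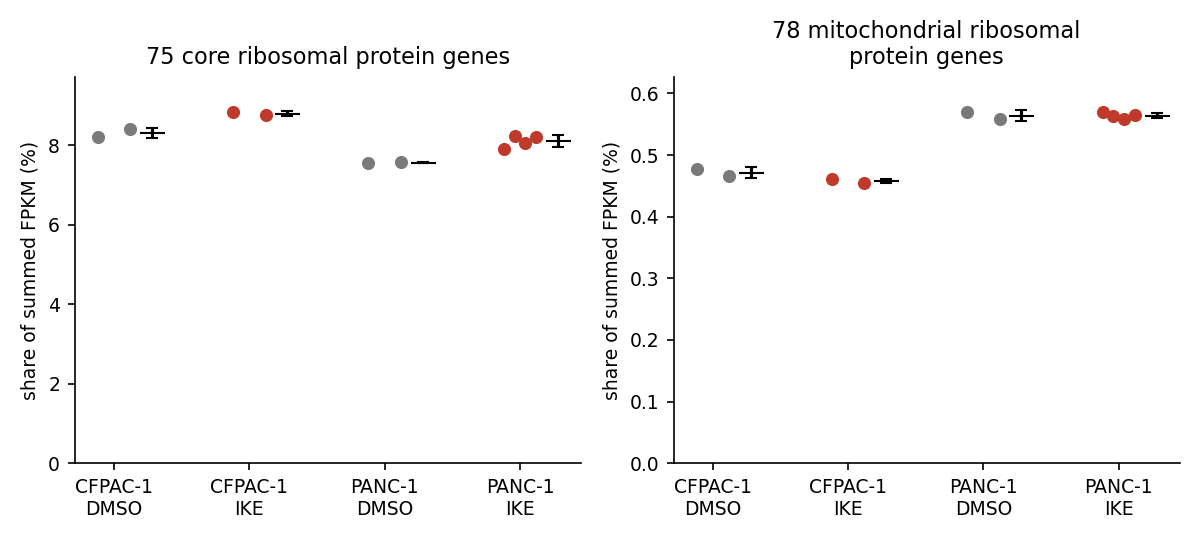
Share of summed FPKM (%, y axis) per library for the core ribosomal protein genes (left) and the mitochondrial ribosomal protein genes (right) in each group; points are libraries, and the black dash with bar is the group mean and SD. On the left, libraries with IKE lie above those with DMSO in both lines, while on the right the PANC-1 groups overlap.

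Mitochondrial ribosomal protein genes, which build the separate ribosome of mitochondria, took 0.472% ± 0.00820 (SD, n = 2) with DMSO and 0.458% ± 0.00380 (SD, n = 2) with IKE in CFPAC-1. In PANC-1 the means were 0.564% ± 0.00830 (SD, n = 2) and 0.564% ± 0.00440 (SD, n = 4). The left-out gene RPS29 had 9972 to 20362 FPKM, or 2.46% to 4.54% of a library's sum, and was lowest in DMSO library 1 of each line. With RPS29 and PTPRD left out of the sum, the core shares were 8.54% and 8.91% against 9.42% and 9.39% in CFPAC-1, and 7.89% and 8.07% against 8.35%, 8.78%, 8.44% and 8.64% in PANC-1, so the groups still did not overlap.

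In CFPAC-1, small upward differences with IKE were spread over most core genes, and no single gene passed the test. Of 75 core genes, 0 were called at an adjusted p under 0.05 (limma, Benjamini-Hochberg over all tested genes), where 1.32% of the 13077 tested genes were called (0.864% higher and 0.459% lower). At an unadjusted p under 0.05, 6 were higher, where 6.50% of all tested genes were, and 0 were lower, where 7.10% were. The log2 difference was above 0 in 67 of 75 core genes (49.6% of all tested genes). Its median was 0.09, and the median of all tested genes was 0.00. Without DMSO library 1 the core median was 0.06. Between the DMSO libraries (2 minus 1) the core median was also 0.06, with 47 of 75 above 0. Between the IKE libraries (2 minus 1) it was -0.02, with 25 of 75 above 0. Both IKE libraries lay above both DMSO libraries in 47 core genes (23.0% of all tested genes) and below them in 2 (23.9%).

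RPL14, a large-subunit protein on chromosome 3 (chr3:40457292-40468587, GRCh38, GENCODE 29), had the largest difference. Its level was 108 and 111 FPKM with DMSO and 178 and 138 FPKM with IKE. The IKE libraries were higher without overlap, but on the log2 scale they differed from each other by more than those of any other core gene. The log2 difference was 0.51 (SE 0.122, limma adjusted p = 0.0689). Without IKE library 2 the difference was 0.69 and was called (limma adjusted p = 0.0428), and without IKE library 1 it was 0.33 (limma adjusted p = 0.368). RPL37A read 332 and 381 FPKM with DMSO against 418 and 422 FPKM with IKE (log2 difference 0.24, limma adjusted p = 0.322). RPL9 read 319 and 353 FPKM against 392.4 and 377 FPKM (0.20, limma adjusted p = 0.218). Both were higher with IKE without overlap.

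Lower values with IKE were few. RPS15 read 356 and 302 FPKM with DMSO and 309 and 283 FPKM with IKE (log2 difference -0.15, limma adjusted p = 0.600). RPS10 read 68.9 and 59.6 FPKM against 61.5 and 54.6 FPKM, and the groups of both genes overlapped. RPSA, also known as the laminin receptor, read 412 and 433 FPKM against 411 and 393 FPKM, just below without overlap.

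In PANC-1, differences were upward in nearly all core genes, and RPL24 and RPL32 passed the test. These 2 genes are 2.67% of the 75 core genes, where 2.38% of all tested genes were called (1.21% higher and 1.17% lower), and no core gene was called lower. At an unadjusted p under 0.05, 28 core genes were higher, where 8.37% of all tested genes were, and 0 were lower, where 9.25% were. The log2 difference was above 0 in 72 of 75 (47.9% of all tested genes), with a median of 0.14 against -0.01 for all tested genes. Between the DMSO libraries (2 minus 1) the core median was 0.06, with 48 of 75 above 0. Between IKE libraries 3 and 4 and libraries 1 and 2 it was 0.02, with 41 of 75 above 0. All 4 IKE libraries lay above both DMSO libraries in 25 core genes (12.3% of all tested genes) and below them in 0 (13.6%).

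**Figure D2:**
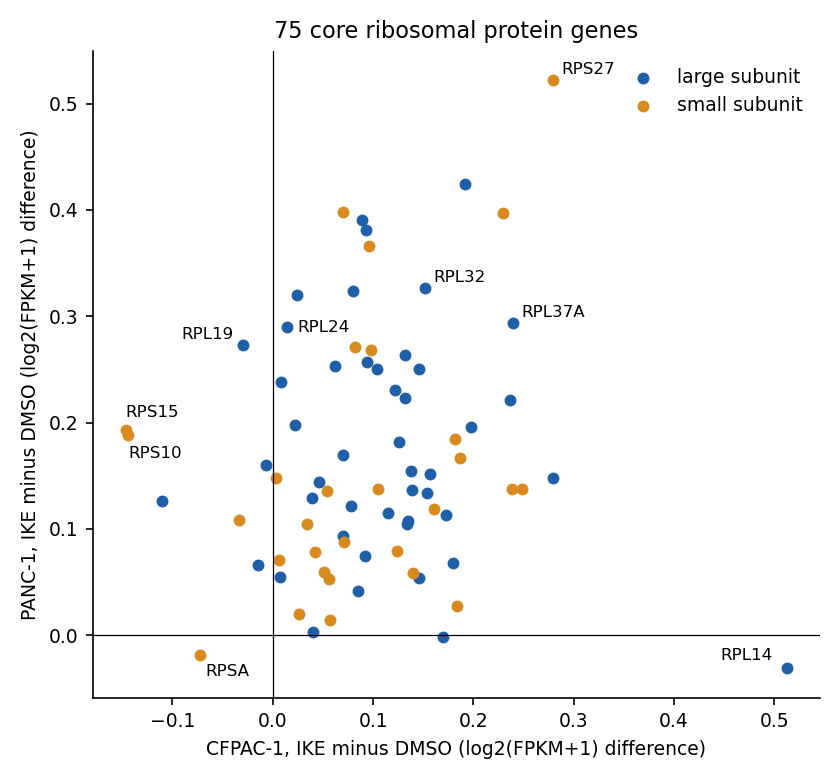
Difference between IKE and DMSO (log2(FPKM + 1)) in CFPAC-1 (x axis) and PANC-1 (y axis) for the 75 core genes, coloured by subunit; each point is a gene. Most points lie above 0 on both axes, and RPL14 stands alone at the right with 0.51 in CFPAC-1 and -0.03 in PANC-1.

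RPL24, which bridges the 2 subunits, read 409 and 422 FPKM with DMSO and 480, 512, 512 and 529 FPKM with IKE. All IKE libraries were above both DMSO libraries, with a log2 difference of 0.29 (SE 0.0572, limma adjusted p = 0.0249). RPL32, another large-subunit protein, read 458 and 493 FPKM with DMSO and 565, 625, 599 and 597 FPKM with IKE, again without overlap. Its log2 difference was 0.33 (SE 0.0647, limma adjusted p = 0.0254). With quantile normalization the differences of RPL24 and RPL32 were 0.17 and 0.18, and neither was called (limma adjusted p = 0.142 and 0.133). Neither was called without DMSO library 1 (adjusted p 0.232 and 0.260) or 2 (0.117 and 0.0890) or without IKE library 4 (0.0702 and 0.0622). The count was also 0 without either CFPAC-1 IKE library (adjusted p 0.0508 to 0.0563), 9 without PANC-1 IKE library 1, and 10 with PANC-1 IKE libraries 3 and 4 alone.

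RPL11, RPL5 and RPS6 have known roles outside the ribosome or in its control. None of them was called in PANC-1, and no test compared them with each other. RPL11, which with RPL5 forms the 5S particle that binds MDM2, read 326 and 379 FPKM with DMSO against 395, 428, 475 and 469 FPKM with IKE (log2 difference 0.32, limma adjusted p = 0.0760). RPL5 read 283 and 265 FPKM against 286, 316, 262 and 287 FPKM (0.07, adjusted p = 0.694). RPL11 did not overlap between the groups and RPL5 did. RPS6, the substrate of S6 kinase, read 175 and 191 FPKM against 200, 221, 233 and 231 FPKM, without overlap (0.27, limma adjusted p = 0.0758).

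The stalk proteins had small differences. RPLP0 read 1717 and 1664 FPKM with DMSO against 1709, 1897, 1553 and 1615 FPKM with IKE, with complete overlap (log2 difference -0.00, 95% interval -0.18 to 0.18). RPLP1 (0.04) and RPLP2 (0.10) were not called either. RPS19, often mutated in Diamond-Blackfan anaemia, read 669 and 596 FPKM against 675, 731, 559 and 609 FPKM, also overlapping (0.02).

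Several of the larger differences in PANC-1 were in genes whose DMSO libraries also disagreed. RPS27 read 96.3 and 132 FPKM with DMSO and 132, 169, 197 and 159 FPKM with IKE (log2 difference 0.52, SE 0.152, limma adjusted p = 0.100). RPL38, known for a role in translating Hox mRNAs, read 170 and 207 FPKM against 206, 240, 265 and 271 FPKM (0.38, limma adjusted p = 0.0941). RPS24 read 276 and 365 FPKM against 335, 401, 508 and 451 FPKM (0.40, limma adjusted p = 0.18). In all 3 the lowest IKE library fell below the higher DMSO library.

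Between the PANC-1 DMSO libraries (2 minus 1), core genes differed by -0.30 (RPS10) to 0.45 (RPS27) on the log2 scale, and the difference had a Pearson r of -0.608 with log2 coding length over 75 genes. The r was -0.302 between the CFPAC-1 DMSO libraries, -0.118 between the CFPAC-1 IKE libraries and -0.334 between PANC-1 IKE libraries 3 and 4 and libraries 1 and 2. The IKE difference had an r with coding length of -0.425 in PANC-1 and -0.217 in CFPAC-1. Within each line the IKE difference shares its libraries with the replicate differences, so these values are set side by side only. In the 8 core genes with coding lengths up to 300 bases, the median was 0.27 between the PANC-1 DMSO libraries and 0.26 between IKE and DMSO. In the 290 other tested genes of that length the medians were 0.06 and 0.04. In the 19 core genes of 600 to 900 bases the medians were -0.06 between DMSO libraries and 0.07 between IKE and DMSO, and in 1787 others -0.01 and 0.00. The part of coding length in the IKE differences was not tested.

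**Figure D3:**
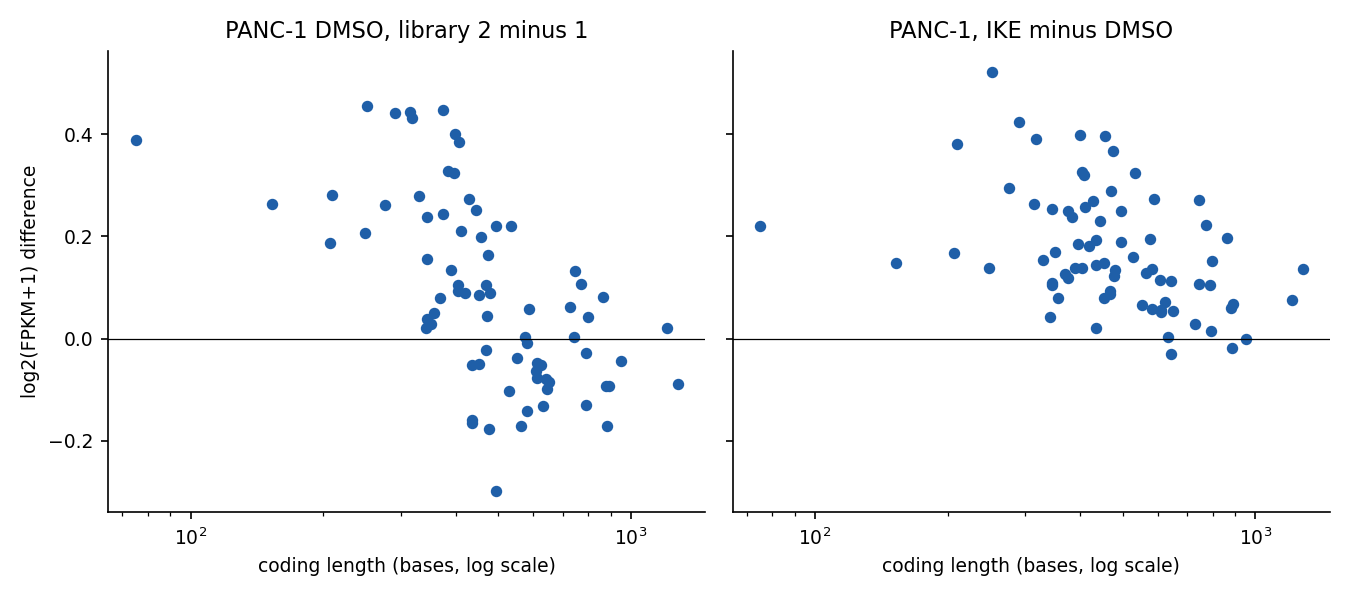
Coding length (bases, log scale, x axis) against the log2(FPKM + 1) difference between the PANC-1 DMSO libraries (left) and between PANC-1 IKE and DMSO (right); each point is 1 of the 75 core genes. Genes under 300 bases lie above 0 in both panels and longer genes reach lower, with r of -0.608 on the left and -0.425 on the right.

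The test of the difference between the responses in the 2 lines called no core gene. Of 75, 0 were called, where 0.336% of all tested genes were (0.107% higher and 0.229% lower in PANC-1). The difference was above 0 in 48 (48.6% of all tested genes). At an unadjusted p under 0.05, 4 were higher (5.83% of all tested genes) and 1 was lower (6.52%). The lower one was RPL14, with 0.51 in CFPAC-1 and -0.03 in PANC-1 (log2 difference of responses -0.54, SE 0.161, limma adjusted p = 0.213). In PANC-1 it read 169 and 158 FPKM with DMSO against 144, 175, 150 and 174 FPKM with IKE, which overlapped. RPL24 (0.28), RPL19 (0.30) and RPS15 (0.34) had larger responses in PANC-1, with limma adjusted p of 0.237, 0.257 and 0.331. Across the 75 genes the CFPAC-1 and PANC-1 differences, which share no library, had a Pearson r of 0.089 and a Spearman rho of 0.131.

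Paralogues, which replace or resemble a core protein in some tissues, passed the filter in 6 of 8 cases, and none was called with IKE in either line. Of all tested genes, 1.32% were called in CFPAC-1 and 2.38% in PANC-1. RPL22L1 in PANC-1 read 14.6 and 15.6 FPKM with DMSO against 22.9, 19.3, 17.8 and 20.5 FPKM with IKE, without overlap (log2 difference 0.39, limma adjusted p = 0.109). Its parent RPL22 had 0.24 (adjusted p = 0.299). RPL10L was listed at 0 in every library and RPL3L, the muscle form, stayed at or below 0.22 FPKM. The readthrough gene RPL36A-HNRNPH2 shares exons with RPL36A, so how their reads were divided is uncertain. It read 24.9 and 28.6 FPKM with DMSO against 33.0, 48.2, 56.4 and 47.5 FPKM with IKE in PANC-1 (0.75, limma adjusted p = 0.107).

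Between the lines with DMSO, the core genes split in both directions. Of 75, 28 were higher in PANC-1, 26 were lower and 21 were not called, so 72.0% were called, where 78.7% of all tested genes were (43.4% higher and 35.2% lower). PANC-1 was above 0 in 41 (54.8% of all tested genes), above every CFPAC-1 library in 31 (49.0%) and below every one in 27 (40.3%). The median log2 difference was 0.11, beside 0.12 for all tested genes. Scaling decided this balance. Median-ratio scaling moved the median of all genes to -0.06 and that of the core genes to -0.09, with 15 called higher and 30 lower. Without PANC-1 DMSO library 2 the core median was -0.00.

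**Figure D4:**
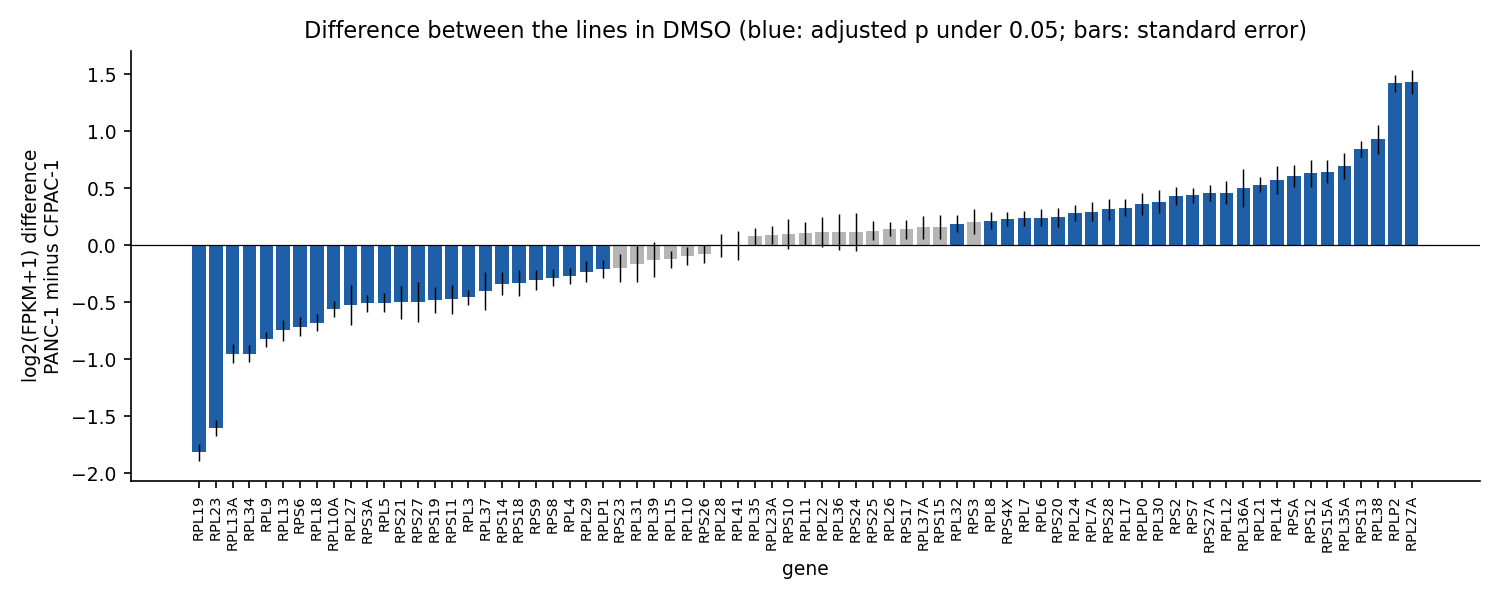
Log2(FPKM + 1) difference between PANC-1 and CFPAC-1 with DMSO (y axis) for 73 of the 75 core genes in order (x axis); bars are limma estimates with standard errors, blue where the adjusted p is under 0.05. RPL19 and RPL23 lie lowest at -1.82 and -1.60, and RPLP2 and RPL27A highest at 1.42 and 1.43.

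RPL19 and RPL23, both large-subunit proteins, were the lowest in PANC-1. RPL19 (chr17:39200283-39204732) read 1470 and 1436 FPKM in CFPAC-1 and 404 and 420 FPKM in PANC-1 (log2 difference -1.82, SE 0.0762, limma adjusted p = 1.11e-09). RPL23 (chr17:38847865-38853843) read 918 and 897 FPKM against 290 and 308 FPKM (-1.60, SE 0.0713, limma adjusted p = 1.88e-09). The lines were far apart in both genes, beyond any spread within a line. The 2 genes are neighbours on chromosome 17, in the stretch that holds ERBB2.

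The other genes of that stretch were also lower in PANC-1. Of 33 other tested genes that start within 1 Mb of RPL19, 31 were lower, with a median of -1.10. Around RPL23, 27 of 29 were lower, with a median of -1.87, and the stretches share genes. ERBB2, a receptor tyrosine kinase, differed by -3.14 and MRPL45, a mitochondrial ribosomal protein gene, by -2.63. The 788 other tested genes of chromosome 17 had a median of 0.04. Genomic copy number was not analysed here.

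RPL27A and RPLP2, highest in PANC-1, lie on chromosome 11. RPL27A (chr11:8682411-8714759) read 127 and 127 FPKM in CFPAC-1 and 317 and 377 FPKM in PANC-1 (log2 difference 1.43, SE 0.102, limma adjusted p = 1.19e-07). RPLP2 (chr11:809647-812880), a stalk protein, read 162 and 179 FPKM against 453 and 465 FPKM (1.42, SE 0.0742, limma adjusted p = 7.44e-09). Around RPL27A all 15 other tested genes were higher, with a median of 1.45, among them IPO7 (1.95), an importin that carries ribosomal proteins into the nucleus, and the initiation factor gene EIF3F (1.14). Around RPLP2, 36 of 44 were higher, with a median of 1.45. RPS13 (chr11:17074389-17077787) differed by 0.85, with a median of 0.85 in 8 genes around it.

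The same comparison over all core genes showed a looser match. In 72 core genes with at least 5 other tested genes within 1 Mb, the member's difference and its neighbours' median had a Pearson r of 0.623 and a Spearman rho of 0.519. Some of these genes share neighbours. Against the median of the whole chromosome, r was 0.387 over 75 genes. RPS12 went the other way from its surroundings, at 0.63 where 8 genes around it had a median of -1.63. RPL10 differed by -0.09 where 43 genes had a median of 1.45. All 3 core genes of chromosome 4 (RPL34, RPL9 and RPS3A) were lower in PANC-1, at -0.95, -0.82 and -0.51, beside a median of -0.60 in 480 other genes of that chromosome.

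**Figure D5:**
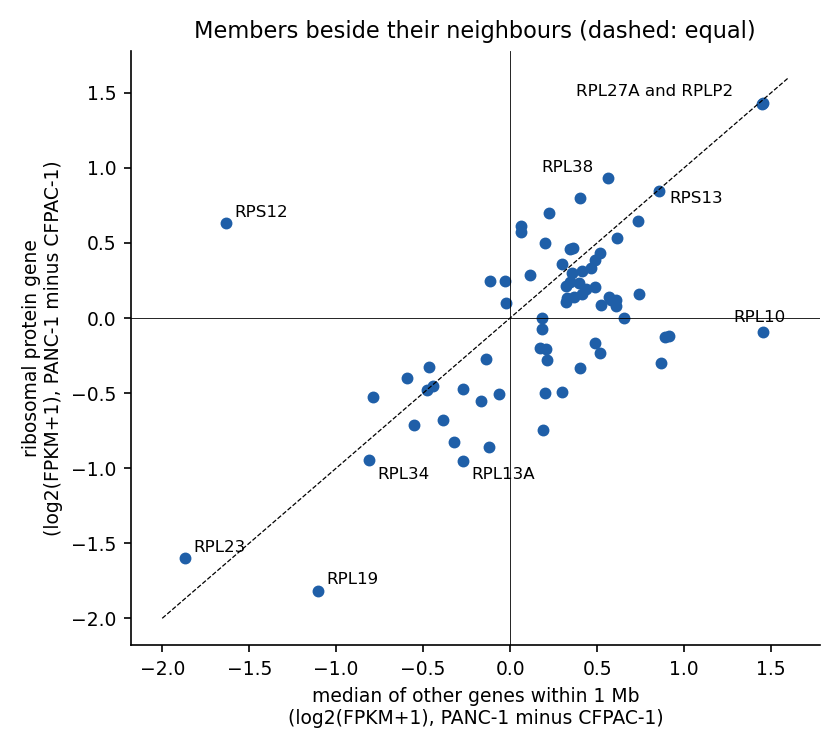
Log2(FPKM + 1) difference between PANC-1 and CFPAC-1 with DMSO for each core gene (y axis) against the median of other tested genes starting within 1 Mb (x axis), for 72 genes; the dashed line marks equal values. RPL27A, RPLP2 and RPS13 lie at the line, RPL19 and RPL23 at lower left, and RPS12 and RPL10 apart from it.

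Further genes that differed were RPL38 (0.93) and RPL35A (0.70), higher in PANC-1, and RPL13A (-0.95), lower. RPL13A, a member of the GAIT complex that represses certain mRNAs, read 636 and 681 FPKM in CFPAC-1 and 348 and 333 FPKM in PANC-1. Each of these 3 differences had a limma adjusted p of 0.000159 or less. All 6 tested paralogues differed between the lines, 2 higher and 4 lower in PANC-1. Of all tested genes, 78.7% were called in this comparison (43.4% higher and 35.2% lower). RPS27L, known as a p53 target, read 32.6 and 37.7 FPKM in CFPAC-1 against 19 and 17.1 FPKM in PANC-1 (-0.92, limma adjusted p = 5.81e-06), and its parent RPS27 differed by -0.49.

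Other parts of the translation machinery were measured beside the ribosomal proteins. RACK1, a small-subunit protein outside the symbol rule, read 710 and 713 FPKM with DMSO against 839 and 821 FPKM with IKE in CFPAC-1. In PANC-1 it read 664 and 667 FPKM against 722, 792, 801 and 784 FPKM, and it was higher with IKE without overlap in both lines (log2 difference 0.22 and 0.22, limma adjusted p = 0.162 and 0.0818). Of 14 elongation factors and other TOP mRNAs, 0 were called with IKE in either line, where 1.32% of all tested genes were in CFPAC-1 and 2.38% in PANC-1. At an unadjusted p under 0.05, 2 were higher and 1 was lower in CFPAC-1 (6.50% and 7.10% of all tested genes). In PANC-1, 6 were higher and 0 were lower (8.37% and 9.25% of all tested genes). The medians of the 14 genes were 0.08 in CFPAC-1 and 0.14 in PANC-1.

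Of 34 initiation factors, EIF1 and EIF4B rose in CFPAC-1 (5.88%, where 1.32% of all tested genes were called), and EIF3C, EIF1 and EIF2S2 rose in PANC-1 (8.82%, where 2.38% were), with none lower. EIF1, which guards start codon choice, read 599 and 637 FPKM with DMSO against 827 and 821 FPKM with IKE in CFPAC-1 (log2 difference 0.42, limma adjusted p = 0.0134). In PANC-1 it read 317 and 329 FPKM against 403, 406, 369 and 410 FPKM (0.30, limma adjusted p = 0.0293). The list's medians were 0.04 and 0.09. With each cell line fitted alone, 10 of the calls with IKE among the core and listed genes were lost. RPL24 and RPL32 were among them, so single calls are not firm.

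Of 15 tested genes that control TOP mRNA translation, 3 rose in CFPAC-1 (where 1.32% of all tested genes were called), and in PANC-1 1 rose and 1 fell (where 2.38% were). The list's medians were 0.04 in both lines, and the other 12 and 13 genes were not called. EIF4EBP1, which blocks the cap-binding factor when mTORC1 is low, rose in both lines, by 0.98 in CFPAC-1 (limma adjusted p = 0.000875) and 0.62 in PANC-1 (0.00873). DDIT4, a brake on mTORC1, read 46.0 and 49.6 FPKM with DMSO against 90.7 and 94.8 FPKM with IKE in CFPAC-1, and 31.7 and 29.5 FPKM against 21.9, 26.5, 19.2 and 19.98 FPKM in PANC-1. It rose in one line and fell in the other, and the responses differed by -1.42 (limma adjusted p = 0.00394). The limit from the fit per cell line applies to the calls within a line on this list as well.

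Mitochondrial ribosomal protein genes, 78 in all, had 0 calls with IKE in either line, where 1.32% of all tested genes were called in CFPAC-1 and 2.38% in PANC-1. At an unadjusted p under 0.05, 1 was higher and 3 were lower in CFPAC-1, where 6.50% and 7.10% of all tested genes were. In PANC-1, 9 were higher and 1 was lower, where 8.37% and 9.25% were. The medians of the 78 genes were -0.05 in CFPAC-1, with 28 of 78 above 0, and 0.05 in PANC-1, with 56 of 78 above 0. The core cytosolic genes had 67 and 72 of 75 above 0. No test compared these lists with each other. Of 17 genes for the import and assembly of ribosomal proteins, 0 were called with IKE in either line (1.32% and 2.38% of all tested genes). At an unadjusted p under 0.05, 1 was higher and 1 lower in CFPAC-1 (6.50% and 7.10% of all tested genes). In PANC-1, 2 were higher and 1 was lower (8.37% and 9.25% of all tested genes). The medians of the 17 genes were 0.05 and 0.03.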

How the data were processed

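RNA depleted of rRNA was sequenced from 10 libraries, per the labels' protocols. Per the submitters' processing notes the build was GRCh38 and the tools included HISAT2 2.1.0 and StringTie 1.3.4 beside fastp, Bowtie2 and DESeq2. The sources used here do not say if counting was stranded. The authors deposited FPKM values with no counts, so depth is unknown and no counting error can be given. The table also has 9 unnamed columns without values. Symbols of 20257 of the 20289 genes came from a separate list of gene names. Positions came from GENCODE 29, as did the names of other genes where it gave one. limma 3.58.1 (R 4.3.3) was fitted to log2(FPKM + 1) of 13077 genes that reached 1 FPKM in 2 or more libraries, with a mean per group, a variance trend and two-sided tests adjusted by Benjamini-Hochberg at 0.05. Log2 differences understate changes of low genes. The fit was tested on simulated data. Labels do not say whether replicates are separate cultures, so p-values measure the spread between these samples. Members and lists were chosen with earlier results of these data known. Named genes are the core genes called with the largest differences (or of lowest p), the highest and lowest in level, paralogues, a panel by role, and called members of each list; RPS24, RPS12, RPS3A, RPL28, ERBB2, EIF3F and RPL36A-HNRNPH2 were added after their values were seen, as were the 1 Mb window and coding length. Results for 3 genes are not reported here.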

Additional observations from a re-analysis of the deposited data

Results flagged for a closer look

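Among the 4 PANC-1 IKE libraries, 2 of the 85 members tested had a library far from the others by Dixon's criterion at 95%. Chance alone flags about 1 in 20 members, and 2 of 85 does not exceed that rate. RPL18 was highest in library 2 at 404 FPKM, beside 367, 365 and 369 FPKM. RPS18 was lowest in library 1 at 606 FPKM, beside 717, 718 and 702 FPKM.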

How the results depend on the processing

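Depth is unknown, groups of 2 limit precision, and the shared spread is an estimate over all groups. The core medians with IKE stayed above 0 under every alternative run (0.0620 to 0.1242 in CFPAC-1 and 0.0768 to 0.1838 in PANC-1), while single calls did not. The count of core genes called higher with IKE in PANC-1 (2 as reported) was 1 with no low-value filter, 0 with quantile normalization, 0 in a fit per cell line, 0 with IKE libraries 1 and 2 alone, 10 with libraries 3 and 4 alone, and 0 to 9 with 1 library left out. In CFPAC-1 (0 as reported) the count was 1 with quantile normalization and 0 to 1 with 1 library left out, the call being RPL14. The PANC-1 IKE median was 0.0768 with quantile normalization and 0.1001 with sums rescaled without RPS29 and PTPRD. The median between lines (0.1053 as reported) was 0.0295 with quantile normalization and -0.0927 with median-ratio scaling (15 genes higher). It was 0.0164 without RPS29 and PTPRD, 0.029 when rescaled to other genes, and -0.0047 to 0.1181 with 1 library left out.

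No label says that a replicate number marks a shared culture or batch. Differences between replicates 2 and 1 correlated across groups at -0.002 to 0.049 over all tested genes and at 0.049 to 0.638 over the core genes, highest between the PANC-1 groups. With a replicate block the PANC-1 count was 1, and RPSA and RPLP0 read 0.0851 and 0.0911, as with IKE libraries 1 and 2 alone. Small values changed sign. In PANC-1 with IKE, EEF1A1 was -0.0501 with quantile normalization, and with 1 library left out RPSA ran from -0.1041 to 0.0673, RPLP0 from -0.0575 to 0.0388 and RPL14 from -0.0801 to 0.0204. FAU between lines was -0.1159 with median-ratio scaling and -0.0069 without RPS29 and PTPRD. The cause was not tested.

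The mean core share in the order CFPAC-1 DMSO, CFPAC-1 IKE, PANC-1 DMSO and PANC-1 IKE was 8.72%, 9.40%, 7.98% and 8.55% without RPS29 and PTPRD in the sum, 8.55%, 9.04%, 7.82% and 8.43% without mitochondrially encoded mRNAs, and 7.02%, 7.37%, 6.19% and 6.69% without the 5 highest members.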
